A study of Mus musculus with 4 samples.

Results

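The 9 genes described here encode the enzymes that write, copy and remove DNA methylation in mouse embryonic stem cells (mESC), together with their partners UHRF1, HELLS and DNMT3L. They were chosen by their symbols, Dnmt1, Uhrf1, Hells, Dnmt3a, Dnmt3b, Dnmt3l, Tet1, Tet2 and Tet3, and all 9 were found among the 32285 genes of the matrix. Levels were taken from single-cell transcriptomes of E14tg2a.4, a male mESC line, and of a heterozygous Srrm2 line (Srrm2 hKO, SIGTR CG0630) that carries a gene trap truncating 1 copy of the splicing factor gene Srrm2. The labels give 2 WT and 2 Srrm2 hKO samples, all kept in serum-free medium with the cytokine LIF for 24 h or 72 h, without saying which length applied to which sample. The study's methods name another single length for the single-cell cultures, so the growth time of these samples was not settled here. The Srrm2 hKO line is 1 clone, and the study froze the lines at different passage numbers, so that clone, passage and genotype cannot be told apart. Cells of the 4 libraries are joined in 1 matrix and carry a library number with no sample label. No library was therefore assigned to a genotype, no test of Srrm2 hKO against WT was made, and no p-value is given. Srrm2 itself was at 387, 533, 238 and 356 counts per 1000000 unique molecular identifiers (UMIs), or CPM, in libraries 1 to 4, and these values were not used to name a library.

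DNA methylation at CG dinucleotides is copied after replication, when UHRF1 binds the hemimethylated DNA of the new duplex and brings in the methyltransferase DNMT1, while the chromatin remodeller HELLS gives the machinery access to packed DNA. DNMT3A and DNMT3B place new methylation, and DNMT3L, which has no catalytic activity of its own, assists them. TET1, TET2 and TET3 oxidise methylcytosine, which leads to its removal. In mESC these activities change as cells leave the naive state, a ground state held by factors such as Klf4 and Esrrb, for the formative state, which is marked by genes such as Otx2 and Pou3f1 and precedes lineage choice. The study examined cell states in Srrm2 hKO cultures by clustering these single cells. It reported higher Dnmt3a and Dnmt3b in its most stem-like Srrm2 hKO cluster than in its mostly WT cluster. It also named both among the marker genes of a further cluster. The comparisons here ask how the levels of these genes differ by state, by cell cycle and by library.

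The annotation (GENCODE M21, GRCm38) places Dnmt1 at chr9:20907209-20959888, Uhrf1 at chr17:56303321-56323486 and Hells at chr19:38930915-38971051. Dnmt3a lies at chr12:3806007-3914443, Dnmt3b at chr2:153649450-153687730 and Dnmt3l at chr10:78041947-78063622. Tet1 lies at chr10:62804570-62908996, Tet2 at chr3:133463679-133545139 and Tet3 at chr6:83362373-83459084. Dnmt1, Tet1 and Tet3 overlap small genes on their own strand (Mir7081, Gm48353, Gm26479, Mir6374 and 5430434F05Rik), so that reads from shared bases cannot be assigned with certainty.

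RefSeq promoter windows of the members (250 bases before to 50 bases after a transcript start, GRCm38.p6) are shown for the 3 members of the copying machinery because they share a feature that the other 6 lack in these windows. Each of the 3 windows holds a match to the recognition motif of the E2F factors, which drive genes of DNA replication, searched on both strands as TTTCCCGC, TTTGGCGC, TTTCGCGC and TTTGCCGC and printed in capitals. Positions are offsets from the first transcribed base, which is 0. The windows lie at chr9:20952574-20952873 (minus strand) for Dnmt1, chr17:56304063-56304362 (plus strand) for Uhrf1 and chr19:38930740-38931039 (plus strand) for Hells.
Dnmt1: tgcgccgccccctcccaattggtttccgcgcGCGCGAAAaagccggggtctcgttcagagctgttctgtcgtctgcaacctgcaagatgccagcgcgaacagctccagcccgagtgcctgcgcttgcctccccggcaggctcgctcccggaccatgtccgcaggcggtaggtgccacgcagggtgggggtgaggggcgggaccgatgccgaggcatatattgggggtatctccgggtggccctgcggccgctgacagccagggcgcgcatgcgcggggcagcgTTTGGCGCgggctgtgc
Uhrf1: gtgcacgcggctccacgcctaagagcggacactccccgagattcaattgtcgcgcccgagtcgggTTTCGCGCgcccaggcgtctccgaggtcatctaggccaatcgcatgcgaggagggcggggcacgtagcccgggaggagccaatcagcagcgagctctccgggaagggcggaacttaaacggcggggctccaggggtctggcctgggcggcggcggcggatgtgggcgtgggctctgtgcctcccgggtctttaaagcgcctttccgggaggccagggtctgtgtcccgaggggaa
Hells: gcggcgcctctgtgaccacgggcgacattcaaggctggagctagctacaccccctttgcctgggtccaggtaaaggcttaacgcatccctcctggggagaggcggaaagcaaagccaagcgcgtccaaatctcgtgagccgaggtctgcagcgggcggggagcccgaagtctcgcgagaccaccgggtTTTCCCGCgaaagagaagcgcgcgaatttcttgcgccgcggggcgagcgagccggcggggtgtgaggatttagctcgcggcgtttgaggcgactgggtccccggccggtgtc
Dnmt1 had 2 matches, TTTCGCGC on the opposite strand starting at -219 and TTTGGCGC at +33. Uhrf1 had TTTCGCGC at -185, and Hells had TTTCCCGC at -62. Of the 16 windows listed for the 9 members, these 3 held a match, as did 742 of all 32817 windows of this length (2.26%). The other windows of Dnmt1 (2) and of Uhrf1 (1) held none. The windows also differed in CG content. Each motif searched holds a CG, and the matching windows of Dnmt1, Uhrf1 and Hells had 33, 33 and 34 CG dinucleotides. The share over all windows is therefore not one at like CG content. Tet2 had 57 CG dinucleotides in its window and the 3 windows of Dnmt3l had 3 to 6, against a median of 7 over all windows. A match is a string of letters only, and binding was not measured.

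A filter rebuilt from the limits the study describes, which did not leave the same number of cells as its own quality control, kept 31989 of 41142 barcodes, 7464 to 8514 per library, with 166839268 to 200180473 UMIs per library. All 4 libraries expressed the stem cell genes Pou5f1, Sox2, Sall4 and Utf1, at 1636 to 1954 CPM summed, while summed markers of fibroblasts (2.30 to 11.6 CPM), trophectoderm (26.3 to 49.4 CPM) and primitive endoderm (0.430 to 1.33 CPM) were low. Krt8 and Krt18, keratins of simple epithelia, were at 39.9, 27.5, 471 and 139 CPM summed in libraries 1 to 4. In all, 211 kept cells shared their barcode sequence with a cell of another library. For the comparisons below each kept cell was thinned to 5000 UMIs and scored. Cells at or above the median of 7 UMIs of 10 naive genes were called naive-high and the others naive-low, and cells above the median of 1 UMI of 10 formative genes were called formative-high and the others formative-low. The naive genes were Nanog, Klf2, Klf4, Klf5, Esrrb, Tfcp2l1, Tbx3, Nr5a2, Prdm14 and Zfp42. Together they were at 1930, 1575, 1402 and 931 CPM in libraries 1 to 4. Klf2 (547, 444, 410 and 222 CPM) and Zfp42 (516, 535, 408 and 359 CPM) had the highest levels among them. Cycle classes were set from 41 S-phase and 53 G2/M genes, none of them a member, as S-high, G2/M-high or low in both. The naive-high/formative-low class held 67.3%, 44.3%, 44.8% and 19.1% of cells in libraries 1 to 4, and the naive-low/formative-high class 5.30%, 22.8%, 16.9% and 51.4%. S-high cells were 36.3%, 47.5%, 32.7% and 41.2%. These are classes of transcript level, not of phase, and many cells lay near the limits. The naive median or 1 UMI below it held 14.8% of cells, and the formative median or 1 UMI above it 44.1%.

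The copying machinery was the steadiest group between libraries apart from Hells, and the de novo enzymes Dnmt3a and Dnmt3b were among the most variable. Dnmt1, the maintenance methyltransferase, had 163, 183, 159 and 176 CPM in the libraries in order, and the highest exceeded the lowest by 1.15-fold. Uhrf1, which recruits it, had 181, 171, 165 and 159 CPM (1.14-fold). Hells was at 335 CPM in library 1, 352 in library 3, 578 in library 2 and 708 in library 4, a fold of 2.11. Libraries 2 and 4 thus lay well above libraries 1 and 3 in Hells. They were also above them in Dnmt1, by much less, and Uhrf1 did not follow this split. A fold of at least 1.5 between the highest and lowest library was seen for 41% of the 11099 genes with at least 200 counts in every library (median fold 1.42), and for 6 of the 9 members.

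Dnmt3a and Dnmt3b followed the same order of libraries. For Dnmt3a the values were 19.8, 59.6, 42.2 and 87.8 CPM (fold 4.43), and for Dnmt3b 79.5, 393, 146 and 586 CPM (fold 7.37). Their cofactor Dnmt3l had another order, with 107, 139.8, 91.3 and 98.6 CPM and a fold of 1.53, which lay between 1.40 and 1.52 under other scalings or choices of cells. Among the TET genes, Tet1 was at 385, 356, 299 and 308 CPM (fold 1.29). Tet2 differed from Dnmt3b in order, highest in library 1 and lowest in library 4, at 46.2, 30.3, 30.6 and 14.8 CPM (fold 3.12). Tet3 was scarce at 2.00, 4.58, 5.08 and 7.73 CPM (fold 3.86). Exact 95% Poisson intervals of neighbouring libraries overlapped for Tet2 (29.6 to 31.1 and 29.8 to 31.4 CPM) and Tet3 (4.28 to 4.88 and 4.75 to 5.43 CPM) in libraries 2 and 3 and for no other neighbours. These intervals cover counting error only, and each library is a single culture.

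**Figure D1:**
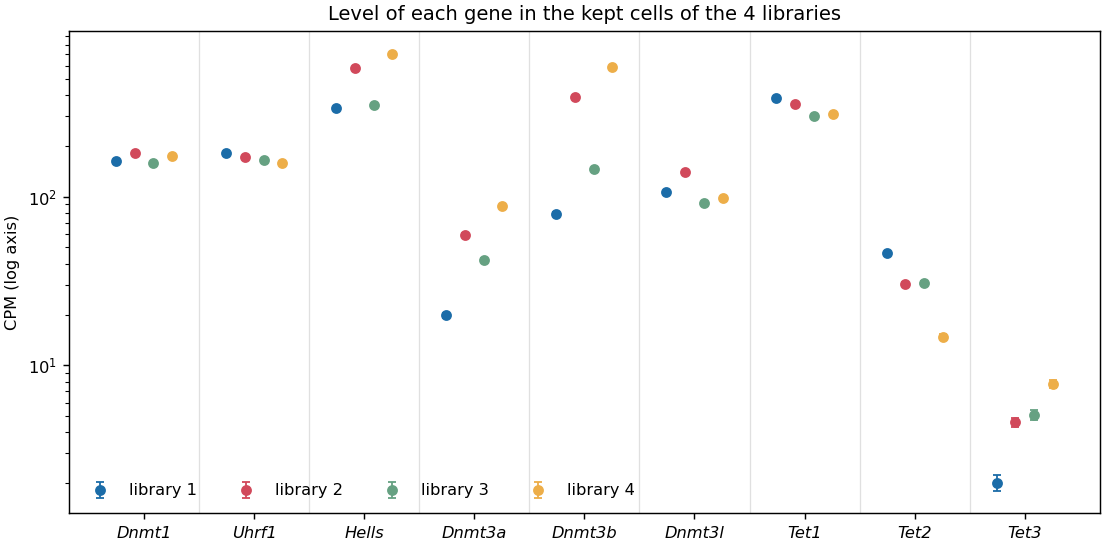
CPM (log axis) of the 9 genes in the kept cells of libraries 1 to 4; points are library totals and bars exact 95% Poisson intervals, smaller than the point for most genes. Dnmt1 and Uhrf1 lie within 159 to 183 CPM in every library, while Dnmt3b spans 79.5 to 586 CPM and Tet2 has its highest point in library 1 (46.2 CPM) and its lowest in library 4 (14.8 CPM).

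The state of the cell separated the members into a group that was higher, a group that was lower and a group that differed little. Naive-low/formative-high cells were compared with naive-high/formative-low cells inside each library, with the cycle classes brought to the same mix. In the UMIs not used for scoring, the naive panel differed between these classes by 0.260 to 0.437-fold and the formative panel by 2.63 to 3.70-fold. A gene was counted when its fold was at least 1.5 in the same direction in all 4 libraries with at least 200 counts in each. By this rule 6.32% of 10435 genes were higher and 3.42% lower. Of the 9 members, 3 were higher (Dnmt3a, Dnmt3b and Tet3) and 2 were lower (Dnmt3l and Tet2).

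Dnmt3b showed the widest contrast among the methyltransferases. Its level in naive-high/formative-low cells was 56.7, 211, 91.2 and 251 CPM in libraries 1 to 4, and in naive-low/formative-high cells 249, 829, 276 and 796 CPM. The higher class was above the lower within every library, by 4.26, 3.87, 2.999 and 3.16-fold, although the naive-low/formative-high cells of library 1 were at about the level of the naive-high/formative-low cells of library 4. Dnmt3a, the other de novo enzyme, was higher by 2.77, 2.95, 2.06 and 2.37-fold, from 16.4 to 46.7 CPM up to 45.9 to 110 CPM.

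Dnmt3l, the partner of these enzymes, ran against them. It was at 114, 158, 117 and 151 CPM in naive-high/formative-low cells and at 58.8, 87.2, 43.8 and 67.2 CPM in naive-low/formative-high cells. All 4 libraries were lower in the latter class, by 0.51, 0.55, 0.37 and 0.44-fold, and the levels of the classes did not overlap across libraries. With scores taken from unthinned cells the fold reached 0.68 in 1 library, which is short of the rule, and with splits at each library's own median it reached 0.87.

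Tet1 and Tet2, the TET genes of naive mESC, were both lower and Tet3 higher. Tet1 was at 407, 384, 379 and 424 CPM in naive-high/formative-low cells and at 239, 283, 177 and 245 CPM in naive-low/formative-high cells. The fold of 0.59, 0.73, 0.47 and 0.58 missed the rule in library 2, and Tet1 met it when that library was left out. Tet2 was at 49.3, 38.1, 39.6 and 29.1 CPM against 25.1, 13.3, 16.8 and 7.32 CPM, with folds of 0.51, 0.35, 0.43 and 0.25, and its highest fold was 0.74, short of the rule, with splits at each library's own median. Tet3 went from 1.76, 2.43, 2.81 and 3.35 CPM up to 2.70, 9.50, 7.48 and 9.81 CPM, which were folds of 1.57, 3.94, 2.73 and 2.93. The lowest of these, in library 1, rested on 222 counts and had a counting interval of 1.05 to 2.36. Without cells that stood out by Krt8 and Krt18 or by two-cell-like genes the lowest Tet3 fold was 1.34, and without cells above 2 times the median UMI count it was 1.31, so that Tet3 no longer met the rule in either case. It also missed the rule with splits at each library's own median.

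The copying machinery lay near 1 in the same contrast. Dnmt1 folds were 0.89, 0.98, 0.84 and 0.87, Uhrf1 folds 0.86, 0.95, 0.79 and 0.89, and Hells folds 0.98, 1.06, 0.94 and 1.02. Crude folds, without the matched cycle mix, lay between 0.78 and 1.06 for these 3 genes. For Dnmt3b they were 3.03 to 4.39 beside 2.999 to 4.26 at the matched mix, so that matching the cycle moved the state folds little. The match is only as fine as the cycle classes, between which the S-phase list differed by 1.204 to 1.40-fold (S-high over low).

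**Figure D2:**
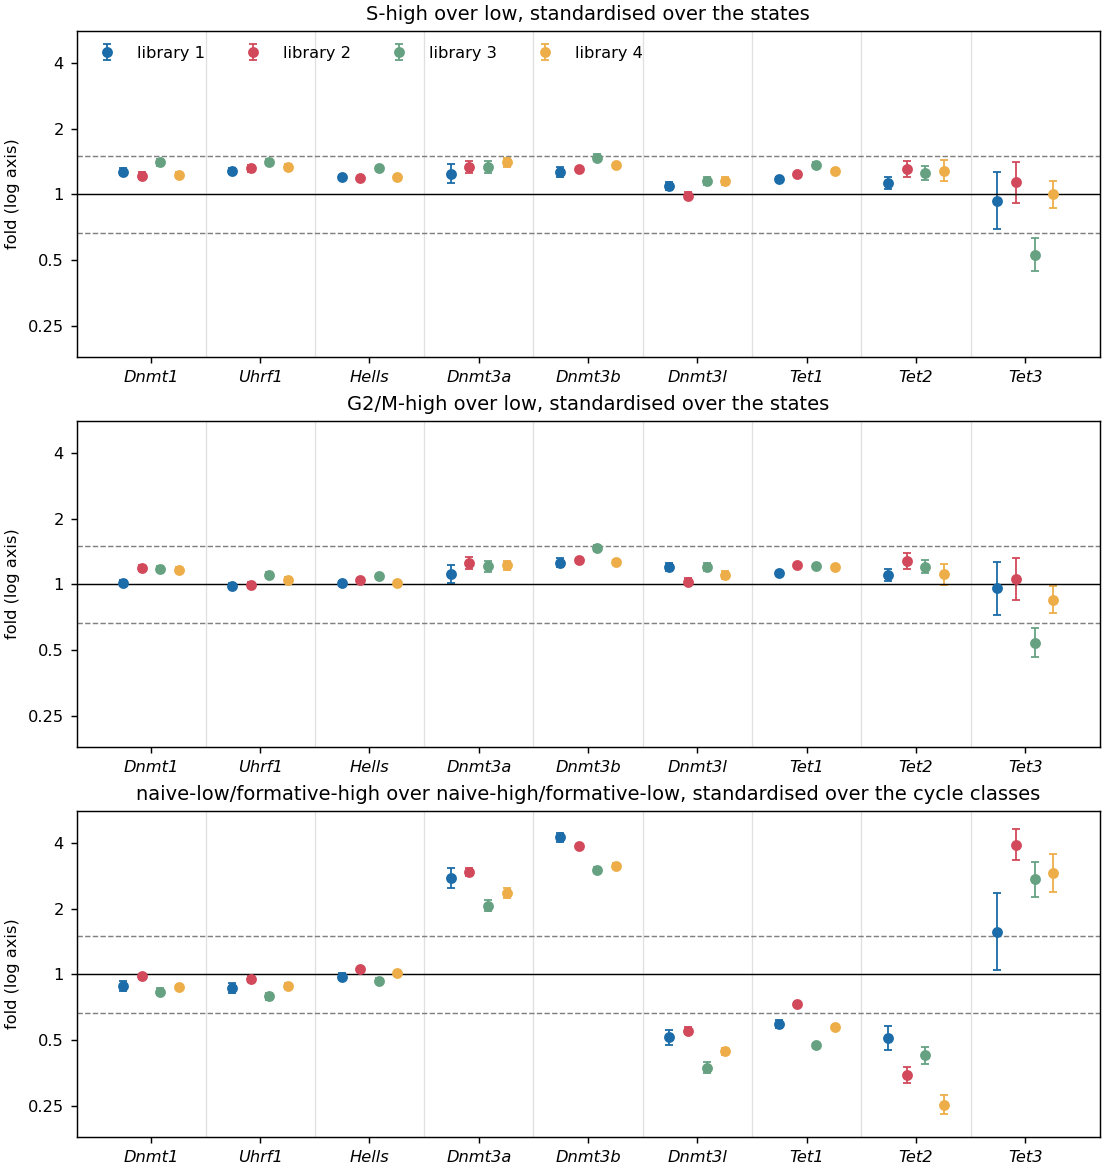
Fold (log axis) of each gene between classes within libraries 1 to 4: S-high over low and G2/M-high over low at a matched mix of states, and naive-low/formative-high over naive-high/formative-low at a matched mix of cycle classes. Bars are 95% counting intervals and dashed lines mark 1.5-fold in either direction; the cycle folds of all genes but Tet3 lie between 0.99 and 1.47, and only the state panel holds points past the dashed lines in every library.

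The naive and formative splits were also taken singly. Among naive-high cells, formative-high over formative-low folds were 0.98 to 1.04 for Dnmt3l, 1.00 to 1.04 for Tet1 and 0.94 to 1.05 for Tet2, while Dnmt3b was 1.18 to 1.47 and Dnmt3a 1.15 to 1.54. Among naive-low cells the same split gave 0.58 to 0.67 for Dnmt3l, 0.73 to 0.85 for Tet1, 0.49 to 0.73 for Tet2 and 1.70 to 2.33 for Dnmt3b. The naive split at formative-low gave 1.67 to 1.96-fold for Dnmt3b, 0.65 to 0.93 for Dnmt3l and 0.44 to 0.77 for Tet2. The naive split at formative-high gave 2.14 to 3.46 for Dnmt3b, 0.36 to 0.55 for Dnmt3l, 0.47 to 0.71 for Tet1 and 0.26 to 0.49 for Tet2. The difference between these folds was not tested. The naive panel still differed within the naive-low cells, where formative-high cells held 475 to 917 CPM of it and formative-low cells 886 to 1494 CPM. The formative split also separated its own panel less among naive-high cells. There the panel was at 126, 184, 166 and 233 CPM in formative-low cells of libraries 1 to 4. In formative-high cells it was at 158, 294, 203 and 385 CPM. Among naive-low cells the values were 169, 293, 243 and 398 CPM and 363, 680, 438 and 726 CPM. The folds near 1 among naive-high cells thus rest on a weaker split.

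Along 6 steps of the naive score the members took different courses. Dnmt3b was at 355, 1067, 264 and 908 CPM in libraries 1 to 4 in cells with 0 or 1 naive UMI and at 52.0, 201, 81.5 and 259.9 CPM in cells with 13 or more. It was lower at each step in every library, by 3.24 to 6.82-fold over the whole range. Libraries 2 and 4 were above libraries 1 and 3 at each of the 6 steps.

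Dnmt3l climbed from 12.5, 51.1, 20.2 and 45.5 CPM in the lowest step to 111, 161, 114 and 140.2 CPM at 6 to 8 naive UMIs, and beyond that stayed within 111 to 161 CPM. Tet2 went on climbing to the last step, from 7.44, 5.18, 8.70 and 3.87 CPM to 55.9, 42.5, 44.6 and 35.1 CPM, a fold of 5.13 to 9.06. Tet1 was 1.84 to 4.35-fold higher in the last step than in the lowest. Hells was nearly level in library 2 (559.8 and 569.9 CPM) and library 4 (673 and 722 CPM). In library 1 (281 and 340 CPM) and library 3 (274 and 362 CPM) it was lower in the lowest step than in the last. Libraries 2 and 4 were above libraries 1 and 3 in Hells at every step. Dnmt1 was 1.06 to 1.47-fold and Uhrf1 1.11 to 1.61-fold higher in the last step than in the lowest. Cells with 3 or more UMIs of Krt8 and Krt18 made up 17.03%, 2.39%, 34.5% and 6.69% of the lowest step in libraries 1 to 4. Without them and the two-cell-like cells Dnmt3b in that step was 416, 1083, 367 and 946 CPM, and Tet3 in library 3 was 7.89 CPM in place of 12.1 CPM. Hells was then at 344 CPM in the lowest step and 362 CPM in the last in library 3. In library 1 it was at 301 and 340 CPM. In library 3 Dnmt1 was then at 139 and 178 CPM and Uhrf1 at 126 and 179 CPM, so that all 3 genes differed less between these steps.

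**Figure D3:**
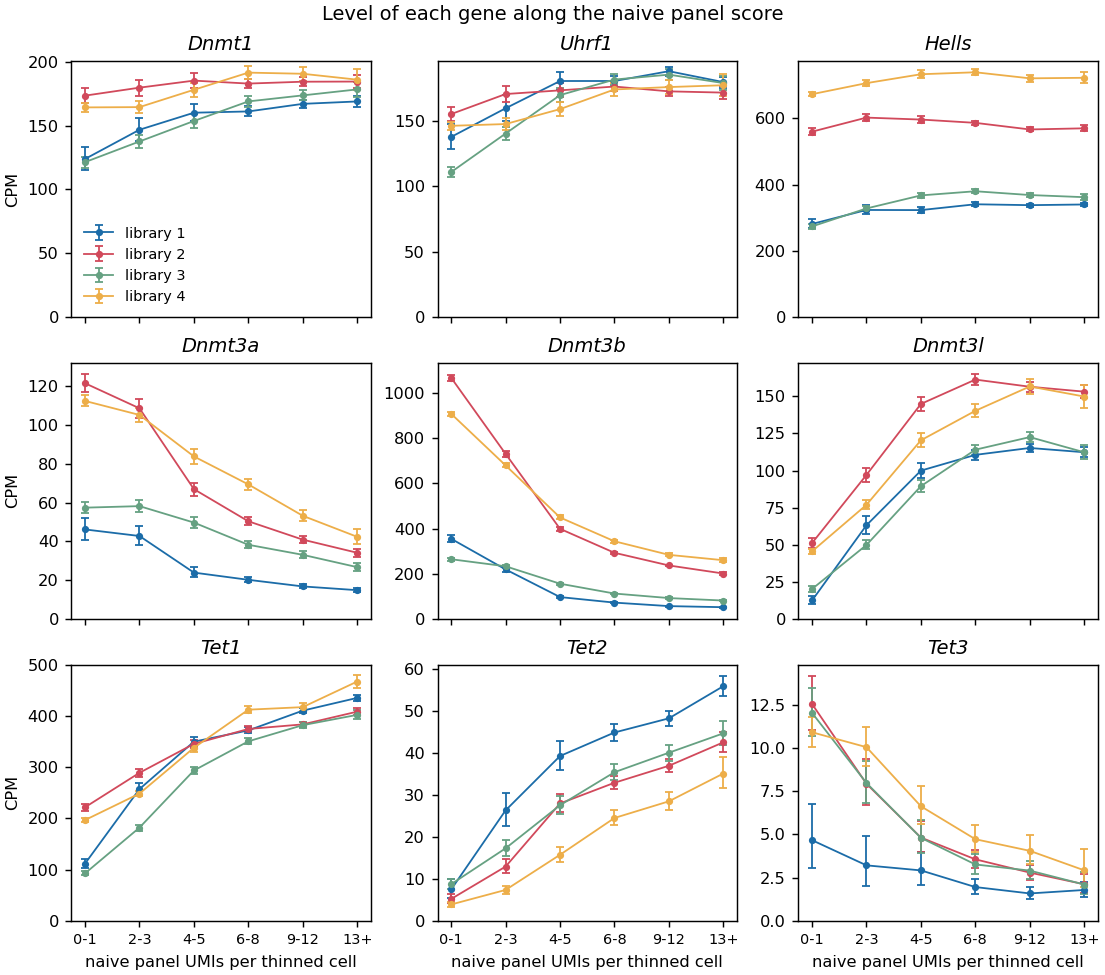
CPM of each gene in cells grouped by UMIs of the 10 naive genes per cell thinned to 5000 UMIs, with 1 line per library and exact 95% Poisson intervals. Dnmt3a, Dnmt3b and Tet3 are lower in the last step than in the lowest in every library, and Dnmt3l, Tet1 and Tet2 are higher. Dnmt3l stays within 111 to 161 CPM from the step of 6 to 8 naive UMIs on. Hells separates by library (559.8 to 739 CPM in libraries 2 and 4, 274 to 380 CPM in libraries 1 and 3) more than by score.

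No member passed the 1.5-fold rule between cycle classes. The S-phase list that set the classes did not reach that limit either, at 1.204 to 1.40-fold in S-high over low cells. S-high over low folds at a matched mix of states were 1.27, 1.22, 1.40 and 1.23 for Dnmt1, 1.28, 1.32, 1.41 and 1.34 for Uhrf1 and 1.21, 1.19, 1.32 and 1.198 for Hells. Dnmt1 in S-high cells was at 189, 189, 188 and 188 CPM in libraries 1 to 4, with intervals that all overlapped, and in low cells at 149, 156, 129.7 and 152 CPM. The libraries thus did not differ in Dnmt1 beyond counting error in S-high cells, and library 3 was the lowest among low cells. In library 3 the low class held 64.5% of Krt8/Krt18-high cells and 24.3% of other cells. Over all cycle classes Dnmt1 was at 101 CPM in the Krt8/Krt18-high cells of library 3 and at 166 CPM in its other cells. The part of the Krt8/Krt18-high cells in the low-class level was not tested. S-high folds in library 3 were 1.71 (Dnmt1), 1.86 (Uhrf1) and 1.67 (Hells) in naive-low/formative-low cells. In its naive-high/formative-low cells they were 1.30, 1.25 and 1.18. The de novo enzymes had S-high folds of the same size, 1.24 to 1.40 for Dnmt3a and 1.27 to 1.47 for Dnmt3b, and Tet1 was 1.17 to 1.37 and Tet2 1.13 to 1.30. Dnmt3l lay lower, at 0.99 to 1.15.

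These folds are to be read against how far the classes separate their own genes. In UMIs not used for scoring the S list was 1.204 to 1.40-fold higher in S-high than in low cells. At 1.5-fold in all 4 libraries 0.0694% of 10085 genes were higher and 0.208% lower in S-high cells, and 0 of the 8 members tested passed in either direction. At a limit of 1.2-fold, chosen after the values were seen, 2.66% of genes were higher and 4 members passed, Dnmt1, Uhrf1, Dnmt3a and Dnmt3b, while Hells (lowest fold 1.19) and Tet1 (1.17) fell just short. The median log2 fold of the 9 members was 0.27 to 0.41 per library, beside 0.04 to 0.06 over all genes tested.

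Dnmt1, Uhrf1 and Hells were nearer to 1 in G2/M-high cells than Dnmt3b, and the difference was not tested. G2/M-high over low folds were 0.99 to 1.11 for Uhrf1, 1.02 to 1.09 for Hells and 1.02 to 1.19 for Dnmt1, in each case below the S-high fold of the same library. For Dnmt3b they were 1.26, 1.29, 1.47 and 1.27, about the S-high folds. At 1.5-fold 0.396% of 10364 genes were higher and 0.145% lower, and 0 of the 9 members passed. At 1.2-fold 2.9% of genes were higher, and Dnmt3b was the only member to pass. G2/M-high cells held more UMIs (median 23068) than low cells (18548), and folds per cell in place of CPM were larger for it, 1.49 for Dnmt3b as the median of the libraries.

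Tet3 stood apart in library 3, where its S-high fold was 0.53 and its G2/M-high fold 0.54, against 0.85 to 1.14 in the other libraries. Over all libraries, 56.2% of cells high in Krt8 and Krt18 fell in the low cycle class, against 20.02% of other cells. In library 3 these shares were 64.5% and 24.3%. Without the Krt8/Krt18-high and two-cell-like cells, the S-high folds of Tet3 lay between 0.83 and 1.25 and those of Hells between 1.16 and 1.19. The part of these cells in the library 3 folds was not tested.

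Differences between libraries were then taken at the same mix of the 12 state and cycle groups. Hells had a fold of 2.09 compared with 2.11 before (99.0% of the log fold), with levels of 338, 570.3, 364 and 707 CPM in libraries 1 to 4. For Dnmt3b 7.37-fold became 3.87-fold, which left 67.8% of the log fold, and for Dnmt3a 4.43-fold became 2.81-fold (69.3%). Tet2 retained 61.2% (2.01-fold), Tet3 74.5% (2.74-fold) and Dnmt3l 95.1% (1.499-fold). Tet1 was at 1.15-fold, Dnmt1 at 1.13-fold and Uhrf1 at 1.08-fold, and the extremes became libraries 4 and 1 in place of 2 and 3 for Dnmt1 and libraries 4 and 3 in place of 1 and 3 for Tet1.

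The matching is coarse. Within naive-high/formative-low cells the formative panel was still at 126, 184, 166 and 233 CPM in libraries 1 to 4, in the order of Dnmt3b, and with a finer grid of 36 groups Dnmt3b came to 3.27-fold, Dnmt3a to 2.55-fold and Tet2 to 1.84-fold, while Hells was at 2.11-fold. How much of the remaining fold would go with a still finer match was not tested. Without the Krt8/Krt18 and two-cell-like cells the folds at the matched mix were 2.09 for Hells, 4.10 for Dnmt3b and 1.44 for Dnmt3l.

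**Figure D4:**
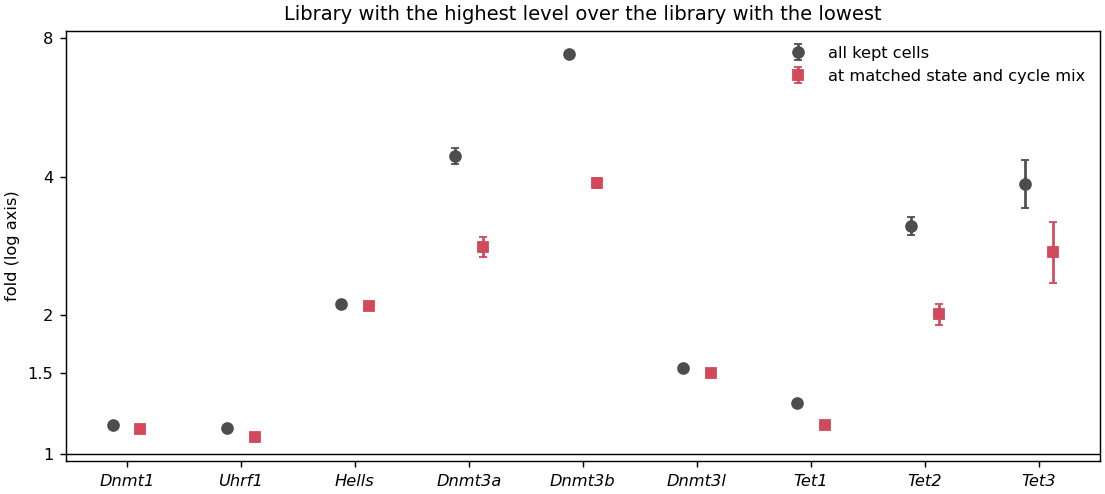
Highest over lowest library (fold, log axis) for each gene over all kept cells (circles) and at the same mix of 12 state and cycle groups (squares), with 95% counting intervals. Hells lies at 2.11 and 2.09, Dnmt3b moves from 7.37 to 3.87, and Dnmt1, Uhrf1 and Tet1 lie at 1.15 or below at the matched mix.

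Within libraries the spread of member counts over cells was also taken. After thinning, the variance of Dnmt3b counts over cells was 1.58, 2.89, 1.85 and 2.64 times the mean in libraries 1 to 4, where counting alone gives 1. In library 2, 68.6% of cells held a Dnmt3b UMI (93.1% before thinning) where a Poisson count of the same mean would give 85.1%. A background share from cells without the gene was not available in these cultures. Tet1 had ratios of 1.34 to 1.56, Dnmt3l of 1.34 to 1.46, Hells of 1.14 to 1.34 and Dnmt3a of 1.08 to 1.21. Dnmt1 had ratios of 1.05 to 1.13, Uhrf1 of 1.08 to 1.16 and Tet2 of 1.08 to 1.11. Tet2 had means of 0.0691 to 0.237 UMIs per thinned cell. A larger ratio was seen at such a mean for Dnmt3a in library 3, with 1.195 at 0.205 UMIs. Tet2 in library 1 had 1.088 at 0.237 UMIs. At the lowest means the genes were alike, with 1.079 for Dnmt3a in library 1 and 1.078 for Tet2 in library 4. The difference between the genes was not tested. At a given relative spread the ratio grows with the mean, so it does not rank genes of different level. Hells had means of 1.65 to 3.48 UMIs per thinned cell, Uhrf1 of 0.795 to 0.920 and Dnmt3a of 0.0920 to 0.446.

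Across the 48 sums of library, state and cycle class, with the mean of each library removed on the log2(CPM + 1) scale, the members grouped as follows. The sums share libraries, and their classes were built from the panels, so the correlations describe these sums and carry no test. Dnmt3a and Dnmt3b correlated at r = 0.97, Uhrf1 and Hells at 0.92 and Dnmt1 and Uhrf1 at 0.85. Dnmt3l correlated with Tet1 and Tet2 at 0.93 each and with Dnmt3b at -0.78, and Tet2 with Tet3 at -0.83. Dnmt3b and Hells were nearly unrelated (0.08).

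Of 7196 genes above 10 CPM and outside the class lists, those closest to Uhrf1 were Uba2 (0.94), Mcm10, a replication factor (0.94), and Brca1, a repair gene (0.92). Dnmt1 was closest to Stip1 (0.92), Set (0.91) and Hirip3 (0.90), and Hells to Nolc1 (0.93), Srsf10 (0.92) and Uhrf1 (0.92). The genes closest to Dnmt3b were Tspan5 (0.97), Rrp1 (0.97) and Dnmt3a, and those closest to Dnmt3a were Dnmt3b, Myb (0.95) and Tspan5 (0.94). Dnmt3l was closest to Pfkp, Trap1a and Morc1 (0.98 each), Tet1 to Zfp981, Trim28 and Zfp990 (0.97 each), Tet2 to Zfp57, Ncoa3 and Stk38 (0.97 each) and Tet3 to Klf7 (0.91), Marcks (0.90) and Gnas (0.90).

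A small group of cells with at least 3 UMIs of Krt8 and Krt18 after thinning was compared with all other kept cells. It held 1054 cells, with 65, 40, 648 and 301 in libraries 1 to 4. Tet1 was at 60.9, 60.6 and 88.8 CPM in these cells in libraries 1, 3 and 4, compared with 389, 328 and 318 CPM in the other cells. At the cycle mix of the keratin cells the folds in libraries 1, 3 and 4 were 0.16, 0.20 and 0.29 for Tet1, 0.14, 0.26 and 0.36 for Tet2 and 0.08, 0.18 and 0.25 for Dnmt3l. State was not matched, and 373 and 247 of the 648 keratin cells of library 3 were in the naive-low/formative-low and naive-low/formative-high classes.

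Tet3 was higher in the same cells, by 3.49, 4.13 and 2.15-fold, at 6.44, 16.2 and 15.2 CPM. Hells (0.67, 0.50 and 0.61), Uhrf1 (0.61, 0.58 and 0.80) and Dnmt1 (0.60, 0.65 and 0.87) were lower. Dnmt3b differed in direction between libraries, at 1.59-fold in library 1 and 0.65 and 0.68-fold in libraries 3 and 4, and library 2, whose 40 cells were under the minimum of 50, had an unmatched fold of 0.90 (interval 0.81 to 1.00). Median UMIs were 24358 in the keratin cells and 20252 in the others, and the part of doublets was not tested.

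Cells outside these groups with 0 or 1 naive UMI give a closer setting for the same values. Tet2 in them was at 8.05, 10.1 and 3.91 CPM in libraries 1, 3 and 4, and in the keratin cells at 6.44, 8.29 and 5.29 CPM, so that low Tet2 was shared with other naive-low cells. Tet1 was at 129.7, 125.3 and 206 CPM in the former and at 60.9, 60.6 and 88.8 CPM in the latter. Dnmt3l was at 15.5, 26.4 and 47.7 CPM in the former and at 8.42, 17.8 and 24.7 CPM in the latter. All cells outside the keratin group together held 108, 100 and 102 CPM of Dnmt3l, so that low Dnmt3l was in large part shared with other naive-low cells. Dnmt3b was at 416, 367 and 946 CPM against 115, 90.4 and 380.3 CPM in the keratin cells, lower in all 3 libraries, library 1 included. Tet3 was at 3.92, 7.89 and 10.6 CPM in the cells with 0 or 1 naive UMI.

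**Figure D5:**
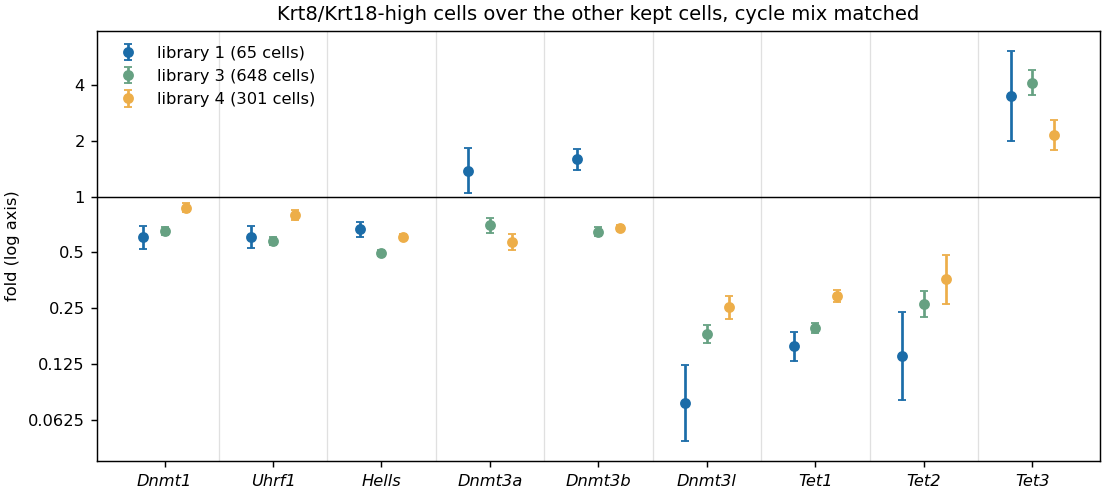
Level of each gene in cells with at least 3 UMIs of Krt8 and Krt18 over all other kept cells (fold, log axis), at the cycle mix of the keratin cells and without matching of state, in the 3 libraries with 50 or more of them; bars are 95% counting intervals. Tet1, Tet2 and Dnmt3l lie at 0.36 or below in each library and Tet3 at 2.15 or above, while Dnmt3a and Dnmt3b lie above 1 in library 1 and below it in libraries 3 and 4.

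Cells expressing genes of the two-cell embryo (Zscan4 and Usp17l families and Tcstv genes, 2 or more UMIs) numbered 24 over all libraries, too few to compare within a library. Pooled, Dnmt3b was at 39.3 CPM (interval 21.5 to 65.97) compared with 307 CPM in other cells, and Dnmt1 at 89.9 CPM compared with 171 CPM. The cells were spread unevenly over libraries of different level, with 7, 6, 9 and 2 in libraries 1 to 4. Within libraries the Dnmt3b folds were 0.38 (interval 0.12 to 1.18), 0.09, 0.23 and 0.19, on 3 to 5 counts each. For Dnmt1 they were 0.43, 0.67 (interval 0.36 to 1.24), 0.47 and 0.83 (interval 0.31 to 2.22), on 4 to 11 counts each. Dnmt3a had 4 counts in all, 3 of them from library 4, and no difference is drawn from them. Uhrf1, at 174 and 169 CPM, was within counting error. Tet3 had 0 counts in these cells, which allows up to 10.4 CPM, more than its level of 4.87 CPM elsewhere, so a difference was not detectable. Their median UMI count was 13872, compared with 20341 in other cells. The low cycle class held 41.7% of them and 21.2% of other cells, and neither cycle nor state was matched here.

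Other genes of the pathway, 40 by role, were counted in the same way, and 38 could be tested in each contrast. In the state contrast 2 of the 38 were higher and 2 lower, beside 6.32% and 3.42% of all genes, so that these counts are near the background. The higher genes were Tdg, the glycosylase that excises the products of TET oxidation (1.68 to 1.87-fold over the libraries), and Zbtb33, a reader of methylated DNA (1.55 to 2.14-fold). The lower genes were Dppa3, which shields maternal methylation in the zygote (0.27 to 0.52-fold), and Zfp57 (0.40 to 0.57-fold).

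Roles without a counted gene are shown by their 2 most abundant genes. Of the maintenance partners, Pcna was 1.00 to 1.07-fold and Usp7, which stabilises the copying complex, 0.76 to 0.85-fold. Pcna is also 1 of the 41 S-phase genes that set the cycle classes, so its fold at the matched cycle mix is not independent of them. Mat2a and Mat2b, which make the methyl donor, were 1.09 to 1.197-fold and 0.93 to 1.04-fold. Among TET partners Ogt was 0.74 to 0.83-fold and Idh2, which supplies their cosubstrate, 0.57 to 0.76-fold. The histone methyltransferases Nsd1 and Ehmt1 were 0.77 to 0.89-fold and 1.03 to 1.22-fold.

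Gadd45b, an adaptor linked to repair-coupled demethylation, differed in direction between libraries, at 4.72, 0.69, 3.91 and 0.93-fold in libraries 1 to 4. Its relative Gadd45a was 0.52 to 0.97-fold. The naive-low/formative-high class held 5.35% and 18.5% of Krt8/Krt18-high cells in libraries 1 and 3 and 1.497% and 4.90% in libraries 2 and 4, and their part in the Gadd45b folds was not tested. In the cycle contrasts 0 of the 38 genes passed in either direction, Pcna of the S-phase list included.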

How the data were processed

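Whole-cell 10x Genomics 3′ libraries (chemistry version 3) of mESC were sequenced by the study. The authors mapped the reads to mm10 with Cell Ranger 6.1.2 (per the labels) and joined the 4 libraries with its aggregation step at default settings, which evens out depth between libraries. The deposited values are whole UMI counts of the joined matrix. Following the study's description, cells were kept when UMIs and detected genes were at or above the library mean minus 1 SD and the mitochondrial share was at most 10%. Doublets were not called. Each kept cell was thinned without replacement to 5000 UMIs (smallest kept cell 5680) for class scores, and members were summed over all UMIs. Folds were standardised directly over states or cycle classes, with delta-method 95% intervals on Poisson counts; shares have exact binomial intervals. All intervals cover counting error only, and 3 counts equal 0.0150 to 0.0180 CPM per library. Scripts used Python 3.11.15, numpy 2.4.6 and scipy 1.17.1, and the fold count was tested on simulated data with planted 2-fold changes. Alternatives varied the cells, scaling, lists, limits and libraries. An edgeR test of Srrm2 hKO against WT was planned and could not be made, because library numbers could not be tied to samples. The members and gene lists were chosen with earlier results of these data known. All 9 members are named; pathway genes are named when counted, otherwise as the most abundant of their role; the 3 most correlated genes are named per member. Zscan4a, of 12 two-cell-like genes listed, was not matched.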

Additional observations from a re-analysis of the deposited data

How the results depend on the processing

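No paired analysis was possible because no library was tied to a labelled sample, and for the same reason the planned edgeR, DESeq2 and block fits were not run. Counts over all genes and the calls of members both depended on the settings, and no counted member turned its direction in any of them. For S-high over low, 7 genes were higher and 21 lower. The higher count was 27 with classes from the outer ends of the scores, 3 with halved lists, 34 with unthinned scores and 3 per cell. The lower count was 62 at a minimum of 50 counts and 1 without the Krt8/Krt18 and two-cell-like cells. For G2/M-high over low, 41 were higher and 15 lower. The higher count was 68 with the outer ends, 2 with halved lists and 89 per cell, and the lower count 36 at 50 counts and 0 without the same cells. A 1.2-fold limit gave 268 higher and 93 lower (S) and 301 and 62 (G2/M), with 4 and 1 members higher. For the state contrast, 660 were higher and 357 lower. The higher count was 325 with each library's own median and 1094 at 50 counts. The lower count was 187 per cell, 171 without high-UMI cells, 205 without the Krt8/Krt18 and two-cell-like cells and 15 with each library's own median. Members higher were 3, and 2, with Tet3 lost, without high-UMI cells, without the Krt8/Krt18 and two-cell-like cells and with own medians. Members lower were 2, with 1 under unthinned scores and 0 with own medians. With 1 library left out, the ranges were 7 to 11 and 21 to 42 (S), 42 to 51 and 15 to 26 (G2/M), and 707 to 876 and 400 to 437 (state). For members in the state contrast they were 3 higher and 2 to 3 lower. Library 1 gave the most for S and for G2/M lower. Median-of-ratios size factors were 0.939 to 1.04 of depth, and Hells and Dnmt3b at the matched mix then stood at 1.89 and 3.50-fold. Of values for single members under other settings, 188 stayed within the range over libraries (class folds) or the counting interval (library folds) of the reported value, and 73 did not. The 1.2-fold limit, the removal of Krt8/Krt18 and two-cell-like cells outside the state contrast and the cycle-matched keratin folds were chosen after seeing the data. Tet3, at 2.00 to 7.73 CPM, was the member most limited by depth.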
